A study of Mus musculus with 22 samples.

Results

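Ribosome biogenesis and RNA polymerase I genes were followed in RNA-seq of mouse embryos with and without knockdown (KD) of the histone variant H2A.Z. The 45 genes were listed by name for their role in making ribosomes and were matched by symbol, and each of the 45 was found among the 55335 genes of the table. RNA polymerase I transcribes the ribosomal DNA in the nucleolus into a long precursor RNA. Small nucleolar ribonucleoproteins (snoRNPs) guide the chemical modification of that precursor, and further factors cleave it, fold it and pack it with ribosomal proteins into a small and a large subunit. In mouse embryos the nucleoli mature and ribosomal RNA synthesis increases during cleavage, while ribosomes stored in the egg serve the earliest divisions.

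Each of the 22 libraries held a pool of 15 embryos, so that it gives no value for a single embryo or cell type. By the methods, embryos came from B6D2F1 females mated with B6D2F1 males. Control embryos gave 4 libraries each of 2-cell embryos (43 to 44 h after the injection of hCG that induces ovulation), morulae (78 h) and blastocysts (94 h). KD embryos had received about 10 pl of siRNAs against H2A.Z at 20 µM as pronuclear zygotes, and gave 3, 3 and 4 libraries at the same times. What the control embryos of these libraries received is stated neither in the labels nor in the methods. For quantitative PCR the methods name control embryos that were not injected. Polyadenylated RNA was amplified as full-length cDNA with Smart-seq2 in 16 to 18 cycles, a protocol that does not keep the strand. The libraries were read as pairs of 150 bp.

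The deposited values are FPKM from STAR and StringTie, that is, fragments per kilobase of transcript, scaled to the mapped fragments of the library. How many reads stand behind a value is unknown. A relative depth was read from FPKM times length over 13491 single-exon genes. The most common of the nonzero values below their median was taken as the step of a library. Only 7.29% to 18.6% of these low values in a library fell within 0.01 of a whole number of steps, so it is a rough measure. In relative units it was 18.0 to 27.3 in control and 20.8 to 27.1 in KD 2-cell embryos, 20.8 to 28.7 and 20.1 to 28.0 in morulae, and 14.8 to 22.1 and 17.2 to 21.2 in blastocysts. The control and KD ranges overlapped at each stage. The relative depth gives no counting error, so the errors below are the spread between libraries.

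For each comparison a factor per library scaled the FPKM. Genes that reached 1 FPKM in 3 or more of the libraries compared were tested on log2(FPKM + 1) with limma. A gene passed the test at an adjusted p under 0.05, with p-values adjusted over all genes tested by the Benjamini-Hochberg method. Differentially expressed genes (DEGs) also had an absolute log2 fold change above 1. Log2 fold changes below are those of the fits, given ± SE, and FPKM are as deposited. All 45 genes reached the filter on low FPKM in each of the 6 comparisons made. The p-values measure the spread between libraries, and the labels do not state whether the libraries of a group came from separate collections of embryos. The methods say in general that experiments were repeated. In libraries of whole embryos, fewer cells of a type and less RNA per cell cannot be told apart.

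The labels were first checked against H2afz, the siRNA target, and against markers of stage. H2afz was at 1244, 1236, 905 and 1178 FPKM in control 2-cell embryos and at 415, 139 and 112 FPKM in KD 2-cell embryos. In morulae it was at 1158, 1336, 1511 and 1421 FPKM in control and at 30.3, 25.7 and 29.0 FPKM in KD libraries. In blastocysts it was at 2656, 2431, 1945 and 2055 FPKM in control and at 64.2, 67.2, 53.2 and 57.6 FPKM in KD libraries. Each KD library was below each control library of its stage, with the first 2-cell KD library the highest of the KD libraries. The log2 fold change was -2.53 ± 0.38 at the 2-cell stage, where limma gave no call (adjusted p = 0.543), -5.41 ± 0.17 in morulae (adjusted p = 9.71e-08) and -5.19 ± 0.20 in blastocysts (adjusted p = 3.63e-08). H2afv, which encodes the closely related H2A.V form of H2A.Z, had log2 fold changes of -2.93 ± 0.15 in KD morulae (adjusted p = 2.93e-06) and -1.86 ± 0.22 in KD blastocysts (adjusted p = 7.95e-05). At the 2-cell stage its log2 fold change was -0.23 ± 0.16 (adjusted p = 0.840). The 6 oocyte transcripts of the marker list summed to between 765 and 1065 FPKM in 2-cell libraries and to at most 11.2 FPKM in any later library. The 6 trophectoderm markers summed to at most 15.2 FPKM in 2-cell libraries, to between 83.9 and 147 FPKM in morulae and to between 584 and 1474 FPKM in blastocysts.

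None of the 45 genes was at 0 in any library. On the FPKM scale, which is per length, Npm1 had the highest mean level in each group but KD 2-cell embryos, where Nhp2 did. Npm1 encodes the nucleolar chaperone nucleophosmin, and Nhp2 a protein of the box H/ACA snoRNPs, which direct pseudouridylation. The lowest mean level belonged to Nol6 or Rrp12, factors of the small-subunit pathway, at between 0.880 FPKM (Nol6, control blastocysts) and 1.90 FPKM (Rrp12, KD morulae). The median of the 45 group means was 16.9 FPKM in control and 16.1 FPKM in KD 2-cell embryos, 21.3 and 21.1 FPKM in morulae, and 12.9 and 18.4 FPKM in blastocysts.

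Taken library by library, the median FPKM over the 45 genes was 18.4, 18.2, 19.6 and 20.0 in control and 16.7, 16.3 and 17.5 in KD 2-cell embryos. In morulae it was 30.2, 25.9, 17.5 and 18.5 in control (replicates 1, 2, 7 and 8 by title) and 21.6, 19.6 and 18.2 in KD libraries. In blastocysts it was 8.52, 12.8, 14.5 and 12.6 in control (replicates 1, 4, 5 and 6) and 16.0, 16.2, 24.0 and 20.9 in KD libraries (the same numbers). The KD libraries were all below the controls at the 2-cell stage, lay among them in morulae and were all above them in blastocysts. In scaled FPKM the 2-cell medians were 18.5, 18.0, 17.8 and 19.1 in control and 17.1, 15.6 and 18.3 in KD libraries, so that KD replicate 4 lay above 2 of the controls, and the blastocyst groups remained apart. By this median control morulae fell into a pair of higher libraries (replicates 1 and 2) and a pair of lower ones (7 and 8). Single genes did not all follow it. Morula replicate 1 had the lowest scaled FPKM of its group for 18 of the 45 genes and the highest for 16. For all genes tested these shares were 38.5% and 25.0%. Replicate 1 stood lowest among control blastocysts. That library had the lowest scaled FPKM of its group for 25 of the 45 genes, and for 33.8% of all genes tested. What the replicate numbers stand for is not stated, and they fall into ranges, 1 and 2 against higher numbers in 2-cell embryos and morulae and 1 against higher numbers in blastocysts.

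**Figure D1:**
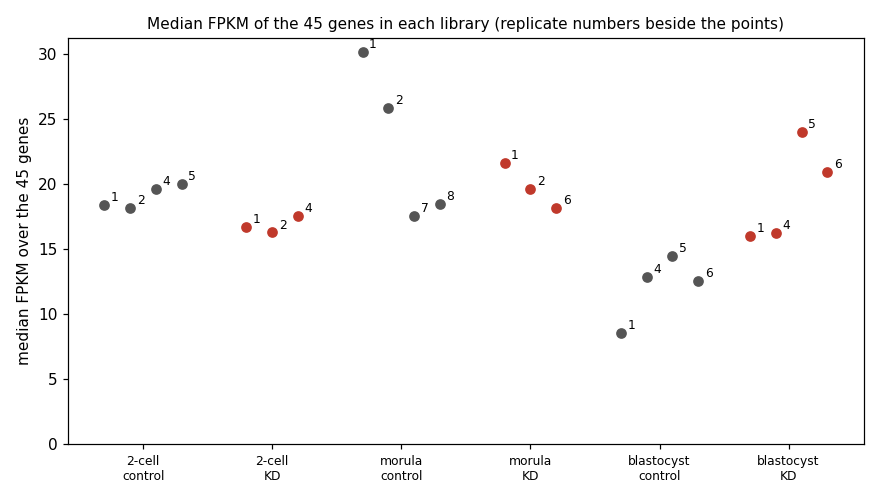
Median FPKM over the 45 genes (vertical axis, FPKM) in each of the 22 libraries, by group, with replicate numbers from the titles beside the points and KD libraries in red. KD blastocysts sit between 16.0 and 24.0 FPKM and control blastocysts between 8.52 and 14.5 FPKM.

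Control morulae were compared with control 2-cell embryos to describe the normal course of these genes. Of the 45 genes, 21 were higher in morulae, where 43% of the 13655 genes tested were, and 9 were lower, where 40.3% of all genes were. The median log2 fold change was 0.37 over the 45 genes and 0.097 over all genes tested. In a single fit over all 6 groups these medians were 0.20 and -0.044. The share that was higher was near that of all genes, and a smaller share was lower. By role, 5 of 7 snoRNP genes were higher and 1 lower, with a median log2 fold change of 1.07. Both abundant nucleolar proteins, nucleolin (Ncl) and nucleophosmin (Npm1), were higher. In the small-subunit pathway 8 of 16 were higher and 4 lower, and in the large-subunit pathway 5 of 13 were higher and 2 lower. Among the 7 genes of RNA polymerase I transcription 1 was higher and 2 were lower, with a median of -0.19.

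Npm1 was at 501, 525, 263 and 416 FPKM in control 2-cell embryos and at 2332, 2301, 2341 and 2228 FPKM in control morulae. All morula libraries lay above all 2-cell libraries, and the log2 fold change was 2.47 ± 0.24 (adjusted p = 1.29e-06). Wdr12, whose product works with Pes1 and Bop1 in a complex for the large subunit, was at 11.5, 11.7, 11.9 and 9.31 FPKM in 2-cell embryos and at 61.6, 51.4, 55.6 and 72.3 FPKM in morulae. The groups were far apart, with a log2 fold change of 2.32 ± 0.18 (adjusted p = 1.44e-07). Noc4l, of the small-subunit processome, was at 13.6, 10.6, 37.4 and 33.7 FPKM in 2-cell embryos and at 94.4, 91.3, 65.7 and 77.2 FPKM in morulae. The 2-cell libraries formed a low pair (replicates 1 and 2) and a higher pair (4 and 5), both below the morulae (log2 fold change 1.91 ± 0.31, adjusted p = 0.000112).

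In the other direction, Polr1e, which encodes a subunit particular to RNA polymerase I, was at 50.8, 74.6, 69.0 and 80.2 FPKM in 2-cell embryos and at 20.3, 19.0, 16.1 and 28.2 FPKM in morulae. No morula library reached the lowest 2-cell library (log2 fold change -1.68 ± 0.21, adjusted p = 1.07e-05). Rrs1, needed for assembly of the large subunit, was at 18.9, 20.2, 19.6 and 20.4 FPKM in 2-cell embryos and at 12.7, 8.87, 6.14 and 5.39 FPKM in morulae. The 2-cell libraries were close together and all above the morulae, among which replicate 1 was highest (log2 fold change -1.24 ± 0.20, adjusted p = 8.36e-05). Gar1, a box H/ACA protein like Nhp2, was at 18.4, 15.6, 7.83 and 10.0 FPKM in 2-cell embryos and at 7.94, 4.65, 3.56 and 3.85 FPKM in morulae. Morula replicate 1 lay just above 2-cell replicate 4, so the groups overlapped (log2 fold change -1.21 ± 0.29, adjusted p = 0.00187).

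From the morula to the blastocyst the 45 genes moved mostly one way. In control embryos 40 of them were lower in blastocysts, against 28.8% of the 11849 genes tested, and 1 was higher, against 27.6%. Of the 40, 21 were DEGs, against 12.9% of all genes as lower DEGs. The median log2 fold change was -0.97 over the 45 genes and -0.025 over all genes tested. By role, 4 of 7 snoRNP genes, both abundant nucleolar genes, 14 of 16 small-subunit genes, all 13 large-subunit genes and all 7 RNA polymerase I genes were lower. Nol6 and Rrp12, counted among them, met the filter on low FPKM through the morulae. The 4 genes that did not pass in either direction were Nop56 and Dkc1, of the box C/D and box H/ACA snoRNPs, and Utp6 and Utp20, of the small-subunit processome.

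Rrp9, a protein of the U3 snoRNP that serves small-subunit processing, was at 51.6, 48.0, 14.6 and 15.8 FPKM in control morulae and at 3.29, 9.34, 7.51 and 6.83 FPKM in control blastocysts. The morulae were split into a high pair (replicates 1 and 2) and a low pair (7 and 8), both above every blastocyst library (log2 fold change -2.04 ± 0.38, adjusted p = 0.000702). Bysl, which encodes bystin, a factor of late small-subunit maturation, was at 30.9, 27.1, 13.5 and 13.9 FPKM in morulae and at 3.23, 5.91, 6.76 and 5.08 FPKM in blastocysts. The same morulae were high, and the groups did not overlap (log2 fold change -1.86 ± 0.25, adjusted p = 6.75e-05). Wdr43, of the small-subunit processome, was at 102, 110.3, 118 and 109 FPKM in morulae and at 23.5, 38.3, 38.4 and 39.1 FPKM in blastocysts. Morulae were even here, and blastocyst replicate 1 was below the other 3 (log2 fold change -1.74 ± 0.16, adjusted p = 4.06e-06).

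Nop10, the smallest of the box H/ACA proteins, was the gene that was higher. It was at 124, 108, 134 and 133 FPKM in control morulae and at 206, 168, 174 and 203 FPKM in control blastocysts. The groups were apart, with a log2 fold change of 0.50 ± 0.16 (adjusted p = 0.0218). Its adjusted p no longer passed without morula replicate 2, where the log2 fold change was 0.43, without blastocyst replicate 6, where it was 0.47, or with no filter on low FPKM, where it was 0.50.

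KD and control embryos were compared at each stage to describe these genes when H2A.Z is depleted. At the 2-cell stage limma called 0 of the 45 genes higher and 0 lower, where 0% of the 12160 genes tested were called in each direction and 701 had an unadjusted p under 0.05. In a single fit over all 6 groups, 26 of all genes were higher and 20 lower, and 0 of the 45. The median log2 fold change was -0.091 over the 45 genes and 0.0035 over all genes tested. With FPKM as deposited these medians were -0.16 and -0.049. With 1 library left out the median over the 45 lay between -0.12 (without KD replicate 4) and -0.041 (without control replicate 5). The genes with the smallest unadjusted p were Wdr12, Bop1 and Rrp1b, of the large-subunit pathway. Wdr12 was at 7.75, 8.46 and 5.34 FPKM in the KD, below its 4 control values given above (log2 fold change -0.52 ± 0.19, adjusted p = 0.828). Bop1 was at 9.71, 6.56, 12.9 and 9.81 FPKM in control and at 4.69, 6.97 and 6.36 FPKM in KD libraries, which overlapped (log2 fold change -0.54 ± 0.21, adjusted p = 0.828). Rrp1b was at 4.18, 7.12, 8.48 and 7.01 FPKM in control and at 4.18, 4.30 and 4.30 FPKM in KD libraries. The KD libraries were level with the lowest control, replicate 1, and below the other 3 (log2 fold change -0.46 ± 0.21, adjusted p = 0.828).

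In morulae limma again called 0 of the 45 genes higher and 0 lower, while 4.23% of the 10989 genes tested were higher and 9.04% were lower, and 3352 had an unadjusted p under 0.05. With FPKM as deposited, without the factor per library, 1 of the 45 was lower (Wdr12), and with the replicate number as a block 1 was higher (Nop16, log2 fold change 0.84). With a term for the range of numbers limma called 0 in either direction. The median log2 fold change was 0.078 over the 45 genes and 0.015 over all genes. With 1 library left out the median over the 45 lay between 0.028 (without control replicate 7) and 0.13 (without KD replicate 1). With FPKM as deposited these medians were -0.043 and -0.085, so the sign of the median over the 45 rested on the scaling. Scaling also moved the balance of calls among all genes, with 465 higher and 993 lower in the scaled values and 281 higher and 1553 lower in FPKM as deposited. Lower calls were the more frequent in both. KD libraries were all above the controls for 3 of the 45 genes, against 12.2% of all genes tested, and all below them for 3, against 15.9%.

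The smallest unadjusted p in morulae were those of Nhp2, Ncl and Wdr12. Nhp2 was at 847, 989, 890 and 897 FPKM in control and at 1078, 1088 and 1081 FPKM in KD libraries. The KD libraries were close together and above all controls (log2 fold change 0.38 ± 0.14, adjusted p = 0.0926). Ncl was at 106, 92.1, 83.9 and 80.0 FPKM in control and at 104, 106 and 103 FPKM in KD libraries. Control replicate 1 lay at the level of the KD libraries, and the other 3 were lower (log2 fold change 0.33 ± 0.13, adjusted p = 0.105). Wdr12 was at 37.2, 45.9 and 40.1 FPKM in the KD against controls between 51.4 and 72.3 FPKM, with no overlap (log2 fold change -0.41 ± 0.17, adjusted p = 0.137). With FPKM as deposited its log2 fold change was -0.54 and passed.

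In blastocysts 28 of the 45 genes were higher in the KD, where 16.7% of the 11828 genes tested were, and 0 were lower by limma, where 19.8% were. All 3 genes whose log2 fold change was below 0 (Nop10, Wdr12 and Dkc1) missed the threshold, and 5439 of all genes had an unadjusted p under 0.05. As DEGs 8 of the 45 were higher and 0 lower, against 6.06% and 7.69% of all genes. The median log2 fold change was 0.54 over the 45 genes and 0.0047 over all genes. KD libraries were all above the controls for 26 of the 45 genes, against 16.1% of all genes, and all below them for 0, against 19.4%. The number that were higher was 20 with no filter on low FPKM, when 34540 genes were tested, 28 with a term for the range of numbers, and between 22 and 28 with any 1 of the 8 libraries left out. The median over the 45 genes lay between 0.53 and 0.59 with 1 library left out. The authors report that the KD strongly reduced the formation of blastocysts. How KD embryos were chosen for the blastocyst libraries is not stated. Whether they had reached the same point of development as the controls was not tested.

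The snoRNP genes were mixed. Of the box C/D proteins, which direct methylation of the sugar of RNA, Nop58 was higher (log2 fold change 0.54 ± 0.17, adjusted p = 0.0228). Fbl, the methyltransferase, had a log2 fold change of 0.61 ± 0.25 that did not pass (adjusted p = 0.0798), and Nop56 one of 0.21 ± 0.20 (adjusted p = 0.452). Of the box H/ACA proteins, Nhp2 was at 388, 410.5, 432 and 454 FPKM in control and at 915, 760.3, 633 and 714 FPKM in KD blastocysts. The groups were apart, and replicate 1 was the highest KD library (log2 fold change 0.84 ± 0.18, adjusted p = 0.00352). Gar1 was at 2.82, 1.32, 2.55 and 1.81 FPKM in control and at 3.44, 3.18, 6.33 and 7.55 FPKM in KD blastocysts. All KD libraries were above all controls, replicates 5 and 6 by the most (log2 fold change 0.92 ± 0.25, adjusted p = 0.0128). Nop10 was at 122, 188, 125 and 145 FPKM in KD blastocysts, against the control values given above. KD replicate 4 lay among the controls and the other 3 below them (log2 fold change -0.38 ± 0.20, adjusted p = 0.155), and without replicate 4 Nop10 passed as lower, with a log2 fold change of -0.53. Dkc1, the pseudouridine synthase, had a log2 fold change of -0.12 ± 0.15 (adjusted p = 0.562).

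Of the abundant nucleolar proteins, Ncl was at 44.9, 62.3, 51.2 and 65.1 FPKM in control and at 71.7, 73.1, 79.7 and 101 FPKM in KD blastocysts. The groups did not overlap (log2 fold change 0.54 ± 0.17, adjusted p = 0.0230). Npm1 was at 1535, 1105, 1171 and 1369 FPKM in control and at 1652, 1840.0, 1606 and 1808 FPKM in KD blastocysts. The KD libraries were all higher, with control replicate 1 close below them, and the difference did not pass (log2 fold change 0.43 ± 0.19, adjusted p = 0.0963).

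Small-subunit genes were higher in 12 of 16 cases and lower in 0, against 16.7% and 19.8% of all genes, with a median log2 fold change of 0.65. Rrp9 was at 17.5, 12.7, 26.7 and 29.0 FPKM in KD blastocysts, against 3.29, 9.34, 7.51 and 6.83 FPKM in control. The lowest KD library, replicate 4, was above the highest control (log2 fold change 1.55 ± 0.27, adjusted p = 0.000975). Bysl was at 12.3, 7.77, 17.2 and 14.4 FPKM in KD blastocysts, again with replicate 4 lowest and all above the controls (log2 fold change 1.15 ± 0.22, adjusted p = 0.00182). Wdr43 was at 72.3, 57.5, 76.1 and 89.0 FPKM in KD blastocysts, well above the controls (log2 fold change 1.08 ± 0.18, adjusted p = 0.000700). The other 9 that passed were Heatr1, Noc4l, Nol11, Wdr75, Nol6, Utp18, Nop14, Utp15 and Utp14a, with log2 fold changes from 0.48 to 0.89. Nol6 was at 0.635, 0.929, 0.883 and 1.07 FPKM in control and at 2.03, 1.19, 3.90 and 1.89 FPKM in KD blastocysts. It met the filter on low FPKM through its KD libraries, so its pass is not independent of that filter. It is included in the 12 and in the 28 of all 45 genes. Utp20, Rrp12, Utp3 and Utp6 did not pass, with log2 fold changes from 0.088 to 0.34.

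Large-subunit genes were higher in 8 of 13 cases and lower in 0, against 16.7% and 19.8% of all genes, with a median log2 fold change of 0.51. Nop2, which encodes a methyltransferase of the large ribosomal RNA, was at 3.97, 7.96, 9.28 and 6.998 FPKM in control and at 14.7, 11.7, 26.4 and 20.9 FPKM in KD blastocysts. The groups were apart, with control replicate 1 and KD replicate 4 the lowest of each (log2 fold change 1.26 ± 0.24, adjusted p = 0.00155). Noc2l, a partner of other Noc proteins in nucleolar precursors of the large subunit, was at 3.54, 5.66, 11.3 and 7.48 FPKM in control and at 12.3, 10.4, 24.0 and 21.4 FPKM in KD blastocysts. Control replicate 5 lay above KD replicate 4, so the groups overlapped in FPKM (log2 fold change 1.20 ± 0.28, adjusted p = 0.00592). In the complex of Pes1, Bop1 and Wdr12 the calls were not the same for each member, and no test compared the members. Pes1 (log2 fold change 0.81 ± 0.20, adjusted p = 0.00863) and Bop1 (1.07 ± 0.29, adjusted p = 0.0135) were higher. Wdr12 was at 38.9, 34.9, 28.4 and 27.9 FPKM in control and at 24.7, 38.6, 25.4 and 27.1 FPKM in KD blastocysts, and the groups overlapped (log2 fold change -0.16 ± 0.21, adjusted p = 0.593). Rrp1, Noc3l, Rrp8 and Nip7 also passed, with log2 fold changes from 0.45 to 1.10. Rrp1b, Gnl3, Rrs1 and Nop16 did not, with log2 fold changes from 0.31 to 0.51.

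Of the 7 genes of RNA polymerase I transcription 4 were higher and 0 lower, against 16.7% and 19.8% of all genes. The median log2 fold change was 0.58 over the 7. Mybbp1a, which encodes a nucleolar protein that binds Myb and RNA polymerase I, was at 1.59, 4.11, 5.38 and 4.25 FPKM in control and at 14.2, 8.68, 17.7 and 10.4 FPKM in KD blastocysts. The groups did not overlap, and control replicate 1 was far below the other 3 controls (log2 fold change 1.55 ± 0.26, adjusted p = 0.000783). Mybbp1a, Rrp9, Nop2 and Noc2l, the 4 genes with the largest change, passed under each alternative tried and with any 1 library left out. Rrn3, which brings RNA polymerase I to the promoter of the ribosomal DNA, was at 18.9, 23.7, 21.2 and 24.4 FPKM in control and at 57.5, 41.1, 39.5 and 34.4 FPKM in KD blastocysts. The controls were close together and all below the KD libraries (log2 fold change 0.92 ± 0.19, adjusted p = 0.00308). The subunit genes Polr1b (0.65 ± 0.20, adjusted p = 0.0227) and Polr1e (0.58 ± 0.19, adjusted p = 0.0314) passed, and Polr1a, for the largest subunit, had a log2 fold change of 0.44 ± 0.17 (adjusted p = 0.0664). Ubtf, for the factor that binds the ribosomal DNA, and Tcof1, for the nucleolar protein treacle, did not pass either, with log2 fold changes of 0.43 and 0.39.

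**Figure D2:**
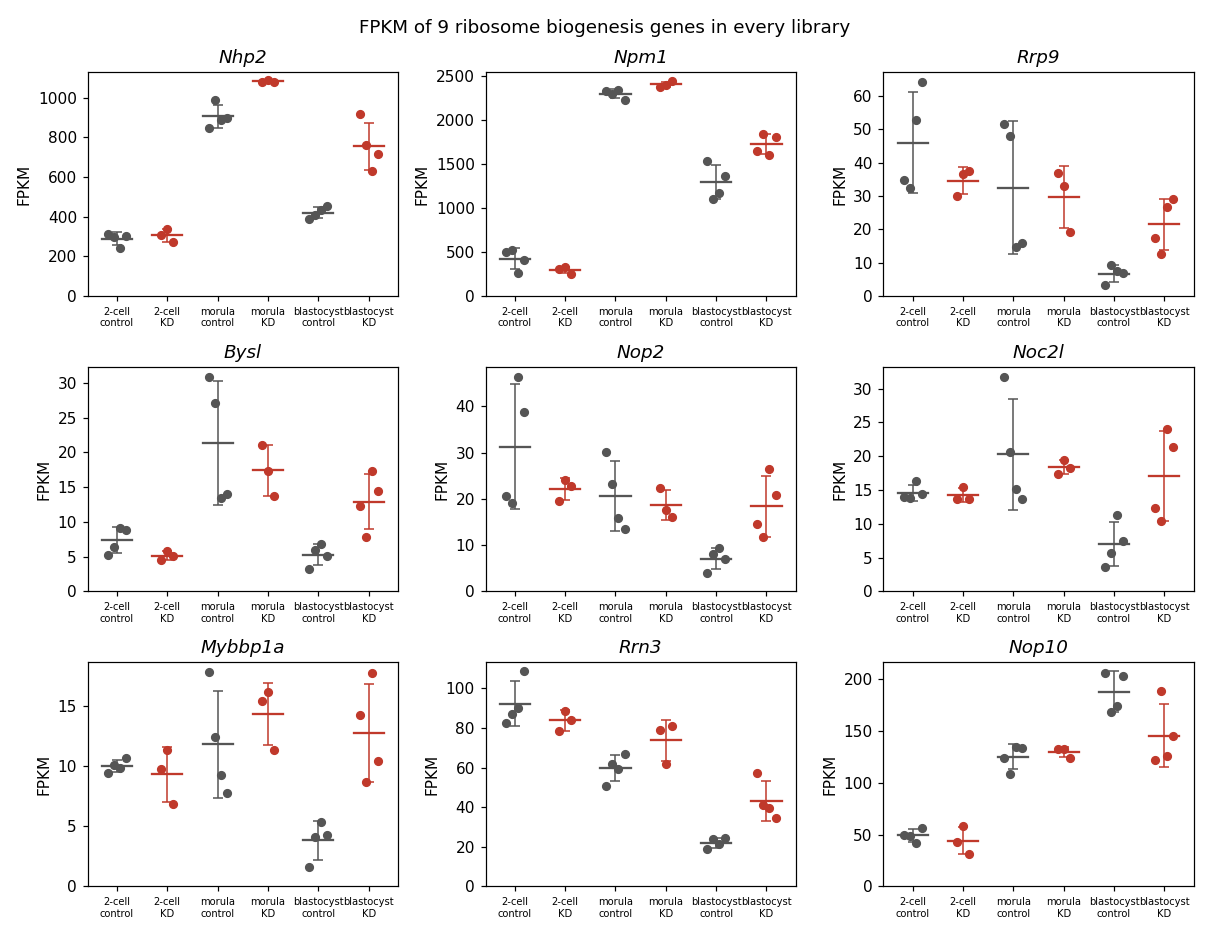
FPKM (vertical axis) of 9 of the 45 genes in every library, by group; points are libraries, horizontal bars the means and error bars the SD (n = 3 or 4), with KD libraries in red. Rrp9 sits between 3.29 and 9.34 FPKM in control blastocysts and between 12.7 and 29.0 FPKM in KD blastocysts, while Nop10 overlaps between them.

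The fits of the KD in blastocysts and of the stages share the 4 control blastocyst libraries, so their values are set side by side only. The median log2 fold change of the 45 genes was -0.97 for control blastocysts against control morulae and 0.54 for KD against control blastocysts. Mean Rrp9 was 32.5 ± 20.0 FPKM (SD, n = 4) in control morulae, 6.74 ± 2.53 FPKM (SD, n = 4) in control blastocysts and 21.5 ± 7.68 FPKM (SD, n = 4) in KD blastocysts. Mean Rrn3 was 59.8 ± 6.66, 22.1 ± 2.51 and 43.1 ± 10.0 FPKM in the same groups, and mean Nop10 was 125 ± 11.96, 188 ± 19.4 and 145 ± 30.3 FPKM (SD, n = 4 each).

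**Figure D3:**
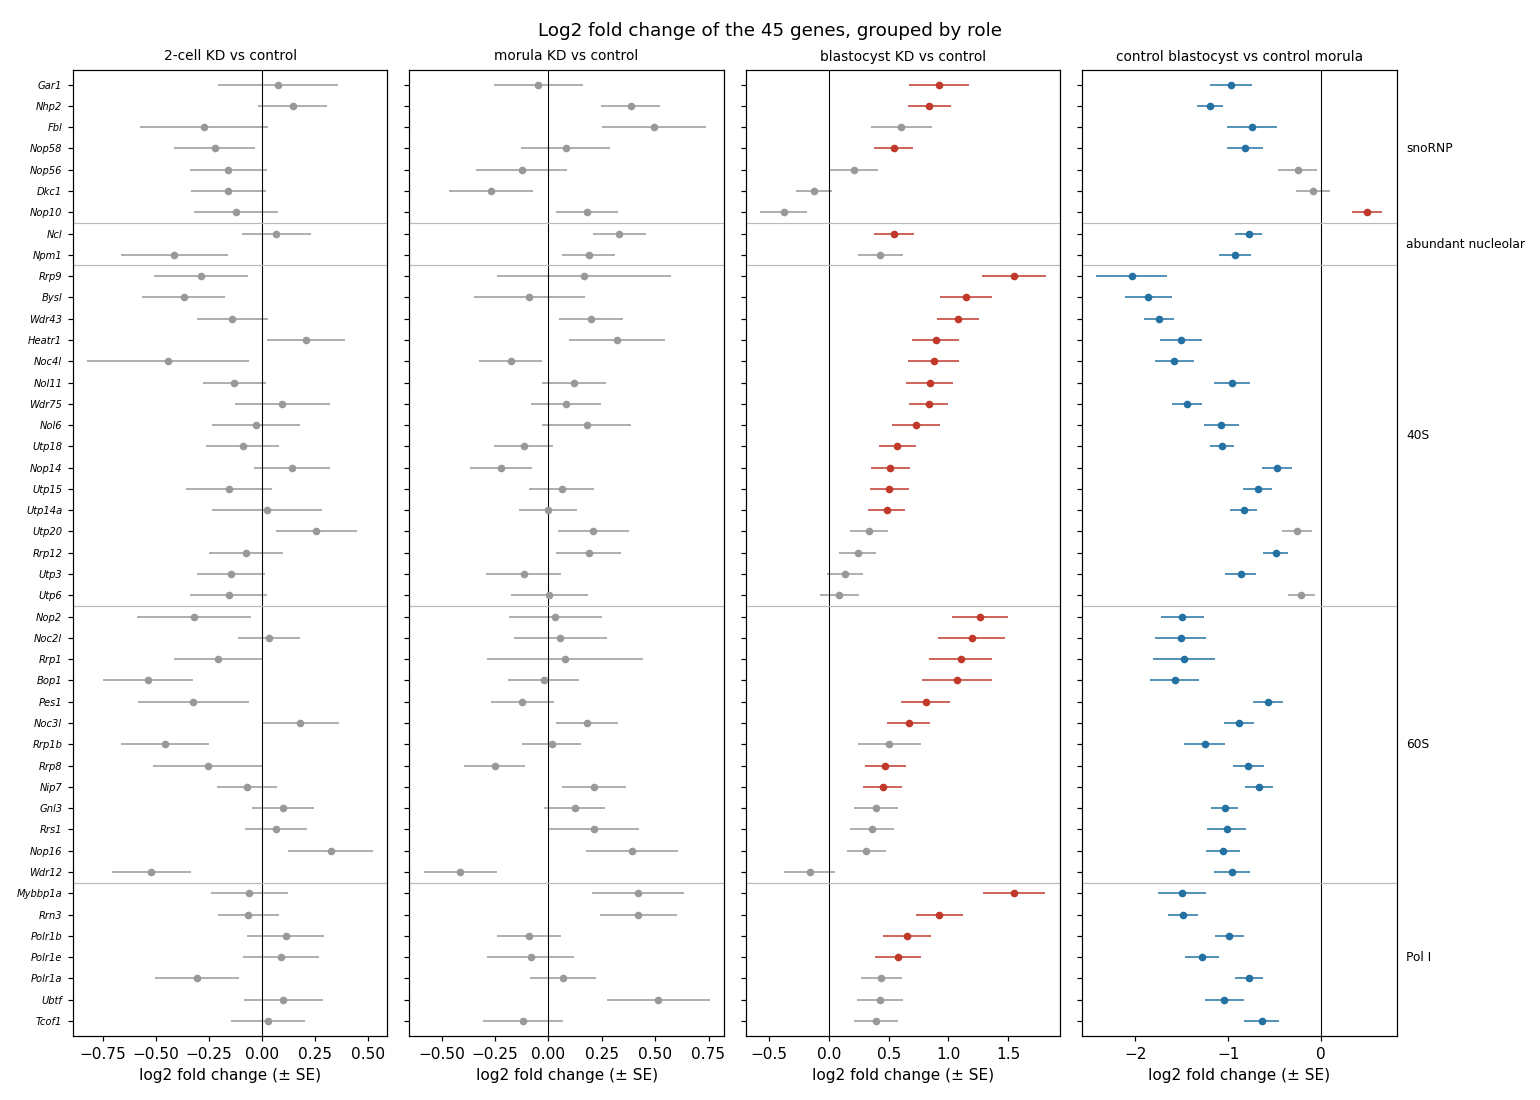
Log2 fold change (horizontal axis, ± SE) of each of the 45 genes in the KD comparisons at 3 stages and in control blastocysts against control morulae, grouped by role. Red and blue mark genes that passed as higher and lower, and grey those that did not pass; in KD blastocysts 28 are red and 0 blue by limma, while Nop10 turns lower without KD replicate 4.

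Whether the KD effect in blastocysts differed from that in morulae was tested as an interaction, with morulae and blastocysts in the same limma fit. Of the 45 genes 9 had a higher effect in blastocysts, against 5.43% of the 12727 genes tested, and 0 had a lower one, against 6.32%, with 3480 of all genes at an unadjusted p under 0.05. The median difference was 0.45 on the log2 scale over the 45 genes and -0.0086 over all genes, and with FPKM as deposited 0.60 and 0.11. The 9 were Bysl (1.20 ± 0.36, adjusted p = 0.0376), Nop2 (1.19 ± 0.34, adjusted p = 0.0314), Noc4l (1.01 ± 0.27, adjusted p = 0.0232), Pes1 (0.90 ± 0.26, adjusted p = 0.0317), Wdr43, Wdr75, Nop14, Rrp8 and Utp18. Noc4l was at 72.2, 59.7 and 66.1 FPKM in KD morulae, and in blastocysts at 17.1, 31.9, 42.5 and 27.1 FPKM in control and at 56.4, 41.3, 56.7 and 56.6 FPKM in KD libraries. KD morulae overlapped their controls, and KD blastocyst replicate 4 fell among the control blastocysts. Pes1 was at 15.0, 10.5, 10.7 and 11.5 FPKM in control and at 9.55, 9.90 and 10.2 FPKM in KD morulae, and at 5.98, 7.45, 10.6 and 9.08 FPKM in control and 10.6, 12.1, 22.2 and 17.2 FPKM in KD blastocysts. Its KD libraries were the lower ones in morulae and the higher ones in blastocysts, where KD replicate 1 lay just above control replicate 5. In KD morulae Bysl was at 21.1, 17.4 and 13.7 FPKM and Nop2 at 22.3, 17.5 and 16.2 FPKM, both within their control ranges.

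The number of genes with an interaction changed with single libraries and with the model. With a block for replicate number it was 5. Bysl and Nop2 still passed then, while Noc4l (1.16, adjusted p = 0.0628) and Pes1 (0.96, adjusted p = 0.0508) did not. With 1 library left out the number was 0 without KD morula replicate 2, 2 without KD morula replicate 1, and 3, 5 and 5 without control morula replicates 2, 1 and 8. It was 2, 4, 14 and 5 without control blastocyst replicates 1, 4, 5 and 6, and 4, 5 and 2 without KD blastocyst replicates 1, 5 and 6. Without KD blastocyst replicate 4 it was 10, and 1 gene, Nop10, then had a lower effect in blastocysts (-0.76). With 1 library left out, Bysl still passed where that library was control morula replicate 7 or 8, control blastocyst replicate 5 or KD blastocyst replicate 4. It did not pass without any 1 of the other 11, with a difference between 1.05 and 1.31. Nop2 did not pass without control morula replicate 1 or 2, KD morula replicate 2 or 6, control blastocyst replicate 1 or KD blastocyst replicate 5 or 6, where its difference was between 1.02 and 1.16. Pes1 did not pass without control morula replicate 1 or 8, KD morula replicate 1 or 2, control blastocyst replicate 1 or 4 or KD blastocyst replicate 5 or 6, with a difference between 0.77 and 0.91. Noc4l did not pass without KD morula replicate 2, at 0.95. With no filter on low FPKM none of these 4 passed, at 1.20, 1.19, 0.90 and 1.01 for Bysl, Nop2, Pes1 and Noc4l, and the number of genes was 2.

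Other genes of the same pathway, from a list of 79 found in the table, were counted in the same way. In KD blastocysts 36 of 78 tested were higher and 4 lower, against 16.7% and 19.8% of all genes, with a median log2 fold change of 0.46. Taf1c, Nle1, Urb2 and Pdcd11, among the 78, met the filter on low FPKM there through the KD libraries. Any pass of theirs as higher is not independent of that filter. The largest were Ppan (1.83 ± 0.29, adjusted p = 0.000497), Eif6 (1.38 ± 0.17, adjusted p = 0.000124) and Tma16 (1.28 ± 0.24, adjusted p = 0.00138), all of large-subunit assembly. The highest log2 fold change among the small-subunit genes of this list was level with that of Tma16, at 1.28. Eif6, which keeps the subunits apart until the large one is mature, was at 42.3, 69.4, 78.3 and 63.6 FPKM in control and at 166, 131, 175 and 180.4 FPKM in KD blastocysts. All its KD libraries were far above its controls. The lower ones were Taf1b (-0.81 ± 0.17), of the factor that selects the promoter of the ribosomal DNA, Utp11 (-0.70 ± 0.20), Znrd1 (-0.69 ± 0.18), a small subunit of RNA polymerase I, and Efl1 (-0.65 ± 0.17), the last named after its values were seen. Taf1b was at 21.6, 22.1, 19.5 and 23.1 FPKM in control and at 12.6, 11.1, 10.4 and 13.2 FPKM in KD blastocysts, with no overlap. Limma called 0 of the 78 in KD morulae, against 4.23% of all genes higher and 9.04% lower, and 0 in KD 2-cell embryos, against 0% in each direction. The interaction was higher for 11 of 78 and lower for 0, against 5.43% and 6.32% of all genes. In control blastocysts 62 of 78 were lower than in control morulae and 0 higher, against 28.8% and 27.6% of all genes. Taf1c, Nle1, Urb2 and Pdcd11 met the filter on low FPKM in that comparison through the morulae. From control 2-cell embryos to morulae 38 of 79 were higher and 14 lower, against 43% and 40.3%, so that the share of higher genes was near that of all genes.

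Genes for ribosomal proteins and genes named for RNA polymerases II and III were counted beside these in KD blastocysts, where 16.7% of all genes were higher and 19.8% lower. No test compared the lists. Of 85 cytoplasmic ribosomal protein genes tested 4 were higher and 1 lower, with a median log2 fold change of 0.11. Of 78 mitochondrial ribosomal protein genes 5 were higher and 37 lower, with a median of -0.48. Of 22 genes of RNA polymerases II and III 8 were higher and 1 lower, with a median of 0.35. From the 2-cell stage to the morula the cytoplasmic ribosomal protein genes had a median log2 fold change of 2.49, with 85 of 86 higher (43% of all genes). From the morula to the blastocyst it was 0.080, with 10 of 85 higher and 8 lower (27.6% and 28.8% of all genes).

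MYC proteins are activators of ribosome biogenesis genes in many cells. Myc was at 12.2, 11.1, 7.63 and 8.35 FPKM in control and at 15.1, 15.5 and 8.30 FPKM in KD morulae, and at 2.96, 4.53, 4.90 and 3.32 FPKM in control and 3.81, 4.28, 7.50 and 6.96 FPKM in KD blastocysts. KD and control libraries overlapped at both stages, and the log2 fold change in KD blastocysts was 0.41 ± 0.20 (adjusted p = 0.131). From control morulae to control blastocysts Myc was lower by -1.21 ± 0.17 on the log2 scale (adjusted p = 0.000114). Mycn was at 5.48, 3.17, 3.42 and 2.36 FPKM in control and at 0.740, 0.738, 3.57 and 1.57 FPKM in KD blastocysts. KD replicate 5 lay among the controls and the other 3 below them (log2 fold change -0.88 ± 0.30, adjusted p = 0.0358). Mycn met the filter on low FPKM only through the control blastocysts, so its pass as lower is not independent of that filter. Of the 11 MYC network genes listed 6 were tested in KD blastocysts, where 16.7% of all genes were higher and 19.8% lower. Besides Mycn, which was lower, 2 of the 6 passed there, both as higher. These were Mxd3 and Mxi1, whose products compete with MYC for its partner MAX, and they are named after their values were seen. Mxd3 was at 0.964, 1.53, 1.88 and 1.09 FPKM in control and at 4.60, 3.52, 3.25 and 4.72 FPKM in KD blastocysts. Its groups were apart (log2 fold change 1.10 ± 0.19, adjusted p = 0.000902). Mxi1 was at 0.675, 0.647, 0.218 and 0.239 FPKM in control and at 1.63, 1.40, 1.79 and 1.30 FPKM in KD blastocysts. Mxi1 met the filter on low FPKM through the KD libraries alone. Its log2 fold change was 0.81 ± 0.17 (adjusted p = 0.00280), a pass that is not independent of that filter. The interaction with stage passed for Mxd3 (1.12 ± 0.27, adjusted p = 0.0127) and Mycn (-1.43 ± 0.36, adjusted p = 0.0163). For Mycn the same limit of the filter holds here, since it was below 1 FPKM in every morula library. Mycl did not exceed 0.345 FPKM in any library and was not tested.

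Values of cell type, stage and other markers also differed between KD and control embryos. All 6 trophectoderm markers were detected, and they summed to 997, 1474, 1311 and 989 FPKM in control and to 584, 741, 784 and 604 FPKM in KD blastocysts. Krt18 was the most abundant of them, at 730.2, 992, 827 and 646 FPKM in control and at 369, 461, 399 and 329 FPKM in KD libraries, and none was at 0 in a blastocyst library. Every KD sum was below every control sum, and of the single genes Krt18 alone was below the controls in every KD library. Krt8, at 225 to 431 FPKM in control and 170 to 313 FPKM in KD libraries, overlapped between them, as did Cdx2, Gata3 and Eomes, and none of these 4 passed. Tfap2c on the same list was higher in the KD (log2 fold change 0.96 ± 0.23, adjusted p = 0.00674). The 3 inner cell mass markers summed to 109, 132, 218 and 131 FPKM in control and to 135, 150.0, 274 and 194 FPKM in KD libraries, which overlapped. Genes annotated on ribosomal RNA sequence (Gm26917, Gm42418 and AY036118) summed to 290.4, 1164, 1023 and 1272 FPKM in control and to 1785, 1740.4, 5578 and 3213 FPKM in KD libraries. All KD sums were above all control sums. These are reads in libraries primed on poly(A), so they do not measure ribosomal RNA in the embryos. The 5 genes of the 2-cell list summed to 0.787, 0.964, 0.291 and 0.716 FPKM in control and to 3.08, 13.98, 3.30 and 9.55 FPKM in KD blastocysts. All KD sums were higher, though far below the 168 FPKM or more of control 2-cell libraries, and all 5 genes were detected in each KD library. Zfp352 or Tdpoz4 was the most abundant of them there. Zfp352 was at most at 0.772 FPKM in control and at least at 1.52 FPKM in KD blastocysts. It met the filter on low FPKM through the KD libraries alone. Its log2 fold change was 1.56 ± 0.29 (adjusted p = 0.00157), a pass that is not independent of that filter. The share of FPKM in mitochondrial transcripts was between 15.2% and 20.0% in control and between 12.98% and 15.3% in KD blastocysts. In morulae it went the other way, with 13.3% to 14.6% in control and 15.7% to 18.3% in KD libraries and no overlap. In morulae the 3 inner cell mass markers summed to 119, 130.3, 137 and 165 FPKM in control and to 39.3, 31.4 and 49.0 FPKM in KD libraries. All KD sums were lower, Nanog was the most abundant of the 3 in each control, and Sox2 was at 0 in KD replicate 1. Nanog was lower in KD morulae (log2 fold change -2.23 ± 0.37, adjusted p = 0.00647), did not pass in KD blastocysts (0.29 ± 0.21, adjusted p = 0.288), and had an interaction of 2.49 ± 0.45 (adjusted p = 0.00202). The part of these markers, of the rRNA-sequence genes and of the mitochondrial share in the results above was not tested. Cumulus cell markers summed to at most 0.110 FPKM in any blastocyst library.

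Some values may hold reads of other genes, since strand was not kept and some transcript sequence is shared. Of the 45 genes 44 had the same identifier version in the reference annotation on GRCm38. Exons of genes on the opposite strand covered 20.9% of the exon bases of Noc2l (Samd11), 11.5% of Utp14a, 9.98% of Rrp8 (Ilk) and 9.37% of Bysl (Ccnd3). Samd11 stayed at or below 0.438 FPKM in every library. Ccnd3 was at 14.1, 4.75, 34.3 and 21.5 FPKM in control and at 31.6, 21.3, 52.4 and 38.3 FPKM in KD blastocysts, which overlapped, and its part in the values of Bysl was not tested. Ilk was at 18.2, 34.0, 43.7 and 31.5 FPKM in control and at 36.0, 25.9, 48.6 and 55.8 FPKM in KD blastocysts, which overlapped and were all above Rrp8 in the same library. Rrp8 passed close to the threshold in KD blastocysts (adjusted p = 0.0492) and in the interaction (adjusted p = 0.0475), and the part of Ilk in its values was not tested. Of the stretches of 100 bases in its transcripts, Noc2l shared 17.5% with other genes, Fbl 15.3%, Npm1 12.7% and Nop56 11.6%.

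Promoters were then searched for motifs that the genes share. RefSeq promoter windows on GRCm38.p6, from 250 bases before to 50 after the start of transcription, were found for 37 of the 45 genes and were searched on both strands. The E-box CACGTG, a motif bound by MYC and related factors, was in the windows of 8 of the 37 genes (21.6%), of 8.09% of all 26994 genes with a window and of 11.9% of the 7286 among them that were tested in blastocysts. The 8 were Wdr43, Utp18, Utp20, Nol11, Nop2, Pes1, Rrn3 and Mybbp1a. The ETS motif CCGGAAG was in 11 of the 37 (29.7%), against 9.92% and 23.6%, and the SP1 motif GGGCGG in 28 (75.7%), against 38.2% and 67.3%. The NFY motif CCAAT was in 14 (37.8%), against 41.0% and 44.2%. The YY1 motif AAGATGG was in 0, against 7.28% and 9.09%, and the NRF1 motif in 0, against 1.07% and 2.47%. A match of these letters does not show that a factor binds there. The 250 bases before the start are printed for 4 genes that were higher in KD blastocysts and hold an E-box there, and for Nop10, which was not higher and holds none. They do not stand for the whole list. Of the 26 genes with a window that were higher in KD blastocysts 7 held an E-box and 19 did not, among them Rrp9, Bysl and Noc2l, and of the 11 that did not pass 1 held it (Utp20). No test was made of these counts. E-boxes are in capitals, and each line runs 5′ to 3′ on the strand of its gene.
Nop2, chr6:125131633-125131882, plus strand: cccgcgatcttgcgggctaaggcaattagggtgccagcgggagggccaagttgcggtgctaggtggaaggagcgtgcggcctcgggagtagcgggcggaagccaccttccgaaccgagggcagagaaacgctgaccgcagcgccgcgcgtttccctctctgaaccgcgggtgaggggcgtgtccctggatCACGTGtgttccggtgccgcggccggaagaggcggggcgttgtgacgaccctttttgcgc
Rrn3, chr16:13780449-13780698, plus strand: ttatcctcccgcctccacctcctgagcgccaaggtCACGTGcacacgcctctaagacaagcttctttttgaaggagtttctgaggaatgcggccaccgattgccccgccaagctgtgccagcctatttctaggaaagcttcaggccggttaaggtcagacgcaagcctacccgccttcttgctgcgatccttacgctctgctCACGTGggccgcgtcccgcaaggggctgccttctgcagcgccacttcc
Nol11, chr11:107189382-107189631, minus strand: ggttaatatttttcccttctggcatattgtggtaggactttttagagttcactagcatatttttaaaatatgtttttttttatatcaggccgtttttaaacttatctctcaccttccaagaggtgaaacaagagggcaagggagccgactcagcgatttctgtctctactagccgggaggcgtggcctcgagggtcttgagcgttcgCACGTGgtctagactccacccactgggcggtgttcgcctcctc
Utp18, chr11:93885767-93886016, minus strand: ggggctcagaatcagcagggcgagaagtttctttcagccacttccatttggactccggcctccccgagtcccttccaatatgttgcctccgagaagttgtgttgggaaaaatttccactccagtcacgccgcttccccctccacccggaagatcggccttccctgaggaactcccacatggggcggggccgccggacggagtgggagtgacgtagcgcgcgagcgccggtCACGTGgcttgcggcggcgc
Nop10, chr2:112261676-112261925, plus strand: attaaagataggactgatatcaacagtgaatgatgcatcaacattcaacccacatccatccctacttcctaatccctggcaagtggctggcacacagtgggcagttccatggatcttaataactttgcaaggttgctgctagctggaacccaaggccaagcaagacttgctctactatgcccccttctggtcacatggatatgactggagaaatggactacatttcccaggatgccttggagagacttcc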

How the data were processed

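RNA-seq FPKM of 22 libraries were analysed. The authors aligned reads to mm10 with STAR, quantified genes with StringTie 2.1.4 and deposited FPKM, with no further scaling stated. With R 4.3.3 and limma 3.58.1, each library was scaled by its median ratio to the geometric mean, over genes detected in every library of the fit. After adding a pseudocount of 1, log2 values were fitted with lmFit and eBayes with a trend, without covariates. Each fit held only the groups compared. Alternatives were another pseudocount, no filter, no scaling, 1 fit over all groups, the replicate number as a block or in ranges, and each library left out. The steps were tested on simulated data, and the outcome of that test is not given here. Values of every library are given for the genes with the largest changes past the test (4 in each direction for the KD, 3 for stages), or, where none passed, the 3 with the smallest p. The 45 genes and the lists were chosen with earlier results of these data known.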

Additional observations from a re-analysis of the deposited data

Results flagged for a closer look

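In groups of 4 libraries, the lowest or highest library stood apart for 9 of the 180 combinations of gene and group examined, and chance gives about 1 in 20, or 9. The measure is the gap to the nearest library divided by the range of the group, read against Dixon's critical value. It was 0.833 for Wdr12 in control 2-cell embryos (replicate 5, 9.31 FPKM). In control morulae it was 0.842 for Utp14a (replicate 7, 31.0 FPKM) and 0.853 for Polr1a (replicate 1, 3.58 FPKM). For Wdr43 in control blastocysts it was 0.951 (replicate 1, 23.5 FPKM). In KD blastocysts replicate 5 stood apart for Fbl (0.867, 23.5 FPKM), Utp15 (0.839, 14.1 FPKM) and Polr1b (0.834, 20.7 FPKM), and replicate 4 for Noc4l (0.981, 41.3 FPKM) and Wdr12 (0.829001, 38.6 FPKM).

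The KD effect differed between blastocysts and morulae, by the interaction in limma, for 9 of the 45 genes, all with a higher effect in blastocysts, against 5.43% of all genes higher and 6.32% lower. The number was 5 with the replicate block, 2 with no filter on low FPKM and 0 to 14 with 1 library left out. On the log2 scale the difference was 1.20 for Bysl, 1.19 for Nop2, 1.01 for Noc4l, 0.90 for Pes1, 0.84 for Wdr43, 0.71 for Wdr75, 0.70 for Nop14, 0.69 for Rrp8 and 0.65 for Utp18.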

How the results depend on the processing

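Of the counts and medians recomputed under an alternative, 231 stayed within 1.5 times the count in the report or within the spread between libraries for a median, while 16 counts were smaller and 5 larger than that. Among the 231, the median in KD morulae changed sign with FPKM as deposited, from 0.078 to -0.043. None reversed a call. With FPKM as deposited the KD morulae had 1 gene lower (Wdr12), and with the replicate block 1 higher (Nop16). The interaction was higher for 2 genes with no filter and for 5 with the block, and with no filter 0 genes were higher in control blastocysts than in morulae. The causes were not tested. With 1 library left out, KD blastocysts had 22 to 28 genes higher and 0 to 1 lower, the interaction 0 to 14 higher (0 without KD morula replicate 2, 14 without control blastocyst replicate 5) and 0 to 1 lower, and control blastocysts against morulae 0 to 1 higher (0 without morula replicate 2 or blastocyst replicate 6). Of values of the single genes chosen by the naming rule, 299 stayed on their side of the threshold, 36 lost a call and 1 gained one (Wdr12 in KD morulae). Outside that rule Nop16 gained a call in KD morulae with the block, and Nop10 one in KD blastocysts and one in the interaction without KD blastocyst replicate 4. Same-numbered control and KD libraries correlated after centring each group at a mean r of 0.15 for 2-cell embryos, 0.14 for morulae and 0.083 for blastocysts. For libraries of different numbers the mean r was lower, at -0.049, -0.028 and -0.029. Not every library was nearest to its own number, so numbers were not taken as pairs, though pairing is not excluded. The block could not be fitted to control blastocysts against control morulae. Read depth is unknown, and each library is a pool of embryos, so spread between embryos and counting error cannot be given.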
